A study of Mus musculus with 4 samples.

Results

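The genes described here are 10 factors and receptors of blood and lymph vessel growth, Angpt2, Angptl4, Vegfa, Vegfb, Vegfc, Pdgfa, Pdgfb, Kdr, Flt1 and Thbs1, as mouse macrophages expressed them with and without LPS. They were found by the current or older symbol of each array probe, and are 10 of the 20289 genes named on the array, covered by 18 of its 45281 probes. Angpt2 and Angptl4 were selected from their large falls with LPS in this same comparison, so their values are given as a description with no test. The other 8 were listed as ligands, receptors and an inhibitor of the same families. RNA was measured on 4 Illumina mouse bead arrays, 2 from cells given 10 ng/ml LPS, labelled as 4 h, and 2 from untreated cells, labelled as 0 h. The study's methods give the same 4 h in both conditions, which the label does not settle. The labels name the cells of both groups RAW264.7, a mouse macrophage line, whereas the array methods of the study name RAW G9, a clone derived from it. RAW G9 is 1 clone that carries a fluorescent RelA fusion driven by the Rela promoter and an mCherry reporter driven by the Tnf promoter, so if the methods apply, both conditions share these inserted genes and the results are those of 1 clone. The replicates A and B of each condition are biological duplicates according to the methods.

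Vessel growth is steered by a few families of secreted proteins. VEGF ligands act on the receptor tyrosine kinases Flt1, Kdr and Flt4 of endothelial cells, with neuropilins as co-receptors. Angiopoietins act on the receptor Tie2 (gene Tek), where angiopoietin-1 steadies vessels and angiopoietin-2 often opposes it. PDGF ligands draw in pericytes and smooth muscle cells, and thrombospondin-1 inhibits vessel growth. Macrophages are a known source of several of these ligands in inflamed tissue and tumours.

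The 4 arrays were alike in the number of probes detected, 16380 to 17892 at a detection p under 0.1, but the LPS arrays were dimmer, with a median signal of 104.1 and 105.1 against 117.8 and 114.1 in untreated cells. Signals were therefore background-corrected and normalized to log2 values before they were compared. Replicates correlated at r = 0.989 with LPS and 0.997 without, across probes, which are not independent replicates. The LPS arrays lay on 1 slide each and both untreated arrays on another slide that held no LPS array, so slide and LPS cannot be told apart, and in bulk RNA fewer cells of a type and less RNA per cell cannot be told apart either. Of the 10 macrophage markers, 9 were detected. The summed level, background-corrected and quantile-normalized, was 45100.9 and 43900.1 in the LPS arrays and 44864.2 and 43309.7 in the untreated arrays. Msr1 was the marker not detected, and the sum includes it. Normalization gives all arrays 1 shared distribution, so the sums do not show whether the signals as a whole differed. In deposited signal Lyz2 read 14424 and 14623.9 with LPS and 21059.8 and 19428.5 without. Cd14 read 18730.7 and 16629.2 with LPS and 18890.5 and 15786.5 without. Single markers moved both ways within the sum. By the brightest probe, Fcgr1 was at a log2 change of 2.01 (limma adjusted p = 0.000198) and Mpeg1 at 0.94 (0.00268). Adgre1 was at 0.67 (0.0177), with its other tested probes at 0.4 and -0.11, and Csf1r was at -0.92 (0.00956). The deposited signals of Fcgr1 were higher and those of Csf1r lower on both LPS arrays. Those of Adgre1 were lower with LPS, at 247.3 and 250.1 against 306.2 and 290 without. Those of Mpeg1 overlapped, at 245.4 and 206.2 with LPS and 247.5 and 226.8 without. The other detected markers did not pass by their brightest probe. Of 17211 probes tested, 2332 (13.5%) were higher and 3273 (19.0%) lower with LPS. Counted as 9729 genes, each by its brightest tested probe, 13.7% were higher and 21.4% lower, and the median log2 change was -0.09. Scaling each array by its median in place of quantile normalization set the median change of the tested probes at -0.62 in place of -0.07.

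Angpt2, which encodes angiopoietin-2, was bright in untreated cells and close to background with LPS. Its probe ILMN_1234487 gave signals of 1494.7 and 1310.6 in untreated cells and of 136.7 and 146.9 with LPS. Both LPS arrays lay far below both untreated arrays, and the probe was still detected on all 4. The normalized log2 values were 9.92 and 10.04 without LPS and 6.05 and 6.55 with it, a change of -3.68 (SE 0.186), or 12.8-fold lower. Without background correction the log2 change was -2.69, and the deposited table gave -2.61. A second Angpt2 probe, ILMN_2642165, gave 109.7 and 100.9 without LPS and 93.6 and 97.3 with it. It was not detected on any array and gives no view of the fall, so the value rests on 1 probe. Among the 9729 tested genes ordered by their fall, Angpt2 ranked 2.

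Angptl4 encodes a secreted protein that blocks lipoprotein lipase and is also known to act on vessels, and it fell to the detection limit. The signals of probe ILMN_2759365 were 427.4 and 345.1 in untreated cells and 108.8 and 107.9 with LPS. The LPS arrays were at background, with detection p of 0.0662 and 0.137, so that the gene was detected on 1 of 2 LPS arrays at the threshold of 0.1. The log2 values were 7.79 and 7.73 without LPS and 4.65 and 4.57 with it, a change of -3.15 (SE 0.13). The LPS level is only a bound there, and the gene was at least 8.65-fold lower. This bound sets the mean of the untreated arrays against the lowest normalized signal among detected probes of each LPS array, or against the probe's own value where that was higher. It depends on the background correction, the scaling and the arrays used. The log2 change was -1.42 without the correction, -2.1 with an offset of 50 and -1.31 in the deposited log2 table, each a smaller fall than the bound. With the correction, the fall was also smaller than the bound under median scaling over the tested probes (-2.74) and without untreated replicate A (-2.92). Its other probe, ILMN_2424627, read 119.6 and 112.2 without LPS and 112.1 and 101.9 with it, and was detected only on LPS array A. Angptl4 ranked 7 among the 9729 genes by fall.

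**Figure D1:**
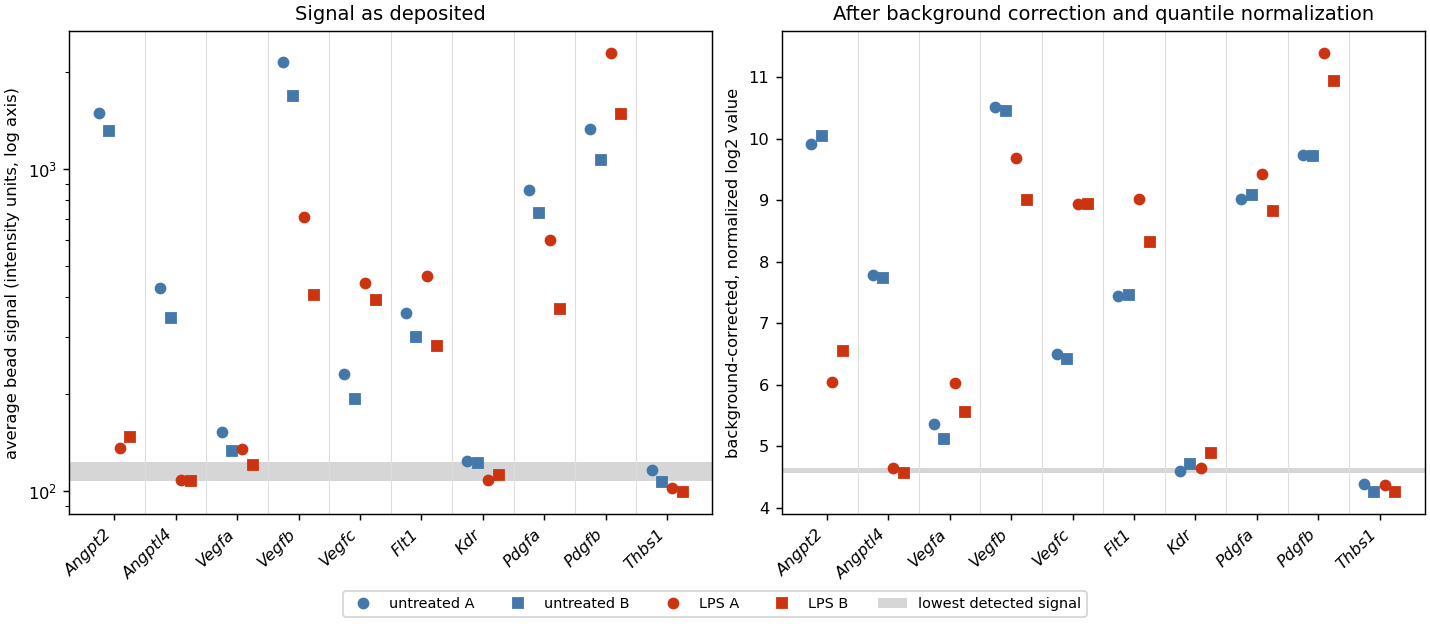
Each of the 10 genes on each of the 4 arrays (blue, untreated; red, LPS; circles, replicate A; squares, replicate B), as the deposited average bead signal on a log axis (left) and as background-corrected, quantile-normalized log2 values (right). Each gene is shown by its brightest tested probe, Thbs1 by its probe ILMN_1222059, and the grey band spans the lowest signal of a detected probe over the arrays; Angpt2 and Angptl4 drop towards the band with LPS, whereas Vegfc, Flt1 and Pdgfb sit higher with LPS on the right.

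Of the 8 other genes, 7 had a probe that could be tested, and 3 were higher and 1 lower with LPS, which are few genes to read against the 13.7% and 21.4% of all tested genes. The VEGF ligands moved in different directions. Vegfc, a ligand of Flt4 (VEGFR-3) known for the growth of lymph vessels, rose most. Its probe ILMN_2486573 gave signals of 231 and 193.3 without LPS and 443.5 and 392 with it, and both LPS arrays lay above both untreated arrays. The log2 values were 6.5 and 6.41 without LPS and 8.94 and 8.93 with it, so Vegfc rose 5.57-fold (log2 change 2.48, SE 0.129, limma adjusted p = 1.71e-05). It passed in all settings run, but the log2 change was 1.69 without background correction, 1.62 in the deposited log2 table and 1.64 with median scaling.

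Vegfb, a ligand of Flt1 that is known for its part in the uptake of fatty acids through vessels, fell. Its probe ILMN_2450384 read 2141 and 1683.1 in untreated cells and 706.9 and 407.6 with LPS. On the log2 scale the untreated arrays were at 10.52 and 10.45 and the LPS arrays, which differed more between themselves, at 9.69 and 9. The log2 change of -1.14 (SE 0.221) was a 2.2-fold fall with a limma adjusted p of 0.0079. The log2 change was -1.91 with median scaling, and with no filter on detection Vegfb did not pass (limma adjusted p = 0.0681).

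Vegfa, the main ligand of Kdr and a driver of blood vessel growth, was dim and did not pass the test. Its brightest probe, ILMN_2484527, read 152.4 and 133 without LPS and 135.7 and 121.1 with it. After background correction the LPS arrays, at 6.02 and 5.55, lay above the untreated arrays, at 5.36 and 5.12, and the log2 difference was 0.54 (SE 0.187, limma adjusted p = 0.0622). A second probe, ILMN_3121255, had signals of 138.8 and 126.8 against 118.7 and 117 with LPS, with a log2 difference of 0.32 (limma adjusted p = 0.109). The third, ILMN_3045723, was not detected on any array. The deposited signals of the brightest probe overlapped between conditions, and with median scaling its difference was -0.02. It passed with median scaling over the tested probes (0.78, limma adjusted p = 0.00213), with the replicate letter as a block, the replicate block (limma adjusted p = 0.0149) and when LPS replicate B was left out (0.83, limma adjusted p = 0.00125).

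The receptor Flt1 (VEGFR-1), which binds Vegfa and Vegfb and is the VEGF receptor known from monocytes and macrophages, was higher with LPS after normalization. The signals of probe ILMN_1227926 were 357.5 and 301.1 without LPS and 465.1 and 283.2 with it, so the deposited signals of the conditions overlapped. Divided by the median of its own array, the probe stood at 3.03 and 2.64 without LPS and at 4.47 and 2.69 with it, so that LPS replicate B lay between the untreated arrays. The log2 values were 7.44 and 7.46 without LPS and 9.02 and 8.32 with it, a 2.33-fold rise (log2 change 1.22, SE 0.223, limma adjusted p = 0.00616). The log2 rise came to 0.87 when LPS replicate A was left out and to 1.56 when LPS replicate B was, and it did not pass with median scaling (0.34, limma adjusted p = 0.237) or with no filter on detection (limma adjusted p = 0.0599). The other Flt1 probe, ILMN_2732721, was not detected on any array.

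Kdr (VEGFR-2), the receptor through which Vegfa acts on endothelial cells, was at the edge of detection. Probe ILMN_2665788 read 124.4 and 122.1 without LPS and 108.8 and 112 with it, with detection p of 0.0353 to 0.0801. The log2 values overlapped between conditions, and the difference of 0.11 (SE 0.144) had a limma adjusted p of 0.589. Its other probe, ILMN_2572649, was below the threshold on LPS array A alone and was not tested. At this signal no change was detectable, and the difference was -0.04 with median scaling and 0.76 (limma adjusted p = 0.00345) with median scaling over the tested probes.

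The PDGF ligands were both well detected, and they differed in their response. Pdgfb, which recruits pericytes through Pdgfrb, rose. Its brightest probe, ILMN_2618714, gave 1326.2 and 1064.9 without LPS and 2284.1 and 1481.7 with it, both LPS arrays lying above both untreated arrays. The log2 values were 9.74 and 9.72 against 11.39 and 10.94 with LPS, a 2.72-fold rise (log2 change 1.44, SE 0.174, limma adjusted p = 0.000941). The dim second probe, ILMN_2726543, at signals of 117 to 128.4, gave a log2 change of 0.88 (limma adjusted p = 0.00923). The signals of this probe overlapped between conditions, and it did not pass without background correction (0.25, limma adjusted p = 0.0617), in the deposited log2 table (0.23, limma adjusted p = 0.07), with no filter (limma adjusted p = 0.0548) or without untreated replicate A or B (limma adjusted p = 0.0881 and 0.076). The bright probe passed in all settings run, at 0.79 with median scaling.

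Pdgfa, which acts mainly through Pdgfra, had signals of 860.8 and 728.4 without LPS and of 601.2 and 367.7 with it. After normalization the LPS values of 9.42 and 8.83 lay on either side of the untreated values of 9.02 and 9.08. The log2 difference was 0.08 (SE 0.202, limma adjusted p = 0.796). With median scaling it was -0.77 (limma adjusted p = 0.00972). It was -0.22 (limma adjusted p = 0.168) without LPS replicate A and 0.37 (limma adjusted p = 0.0389) without LPS replicate B, so its sign turned both with the scaling and with the array left out.

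Thbs1, which encodes the vessel growth inhibitor thrombospondin-1, was not well above background. Probe ILMN_1222059 read 116.2 and 106.7 without LPS and 102.3 and 99.4 with it, and probe ILMN_2659151 read 114.9 and 108.1 against 98.5 and 101. Neither was detected on any array, so Thbs1 was not tested and no change of it could be seen here.

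Promoter sequence was at hand for 6 of the 10 genes, in RefSeq windows of GRCm38.p6, and Angpt2, Angptl4, Pdgfb and Thbs1 had none in that table. The 250 bases before the start are shown, 5′ to 3′, for the members of the VEGF family that passed the test. Capitals mark matches on either strand to the NF-κB consensus, the GC box GGGCGG, the cAMP response element TGACGTCA, the TATA box TATAAA and the core of the hypoxia response element, ACGTG; no matches overlapped in these windows.
Flt1 (chr5:147726012-147726261, minus strand): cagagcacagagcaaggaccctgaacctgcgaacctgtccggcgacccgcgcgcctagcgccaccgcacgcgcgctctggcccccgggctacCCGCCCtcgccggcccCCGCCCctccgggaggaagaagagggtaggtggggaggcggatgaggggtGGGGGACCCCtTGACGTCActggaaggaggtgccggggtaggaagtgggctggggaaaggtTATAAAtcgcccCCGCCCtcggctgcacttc
Vegfc (chr8:54077282-54077531, plus strand): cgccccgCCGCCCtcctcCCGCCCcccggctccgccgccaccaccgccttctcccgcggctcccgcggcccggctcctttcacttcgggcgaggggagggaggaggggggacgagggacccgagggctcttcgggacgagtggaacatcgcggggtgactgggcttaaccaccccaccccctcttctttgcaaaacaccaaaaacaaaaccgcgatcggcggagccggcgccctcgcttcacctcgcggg
Vegfb (chr19:6987652-6987901, minus strand): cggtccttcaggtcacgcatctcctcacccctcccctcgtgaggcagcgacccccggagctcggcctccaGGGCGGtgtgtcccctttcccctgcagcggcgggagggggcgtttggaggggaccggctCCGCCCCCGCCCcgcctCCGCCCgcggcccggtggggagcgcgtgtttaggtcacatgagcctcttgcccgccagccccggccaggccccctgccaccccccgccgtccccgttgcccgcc
The Flt1 window, from the receptor gene that rose, held 1 NF-κB match at -92 to -83, 1 cAMP response element at -81 to -74, 1 TATA box at -31 to -26 and 3 GC boxes. The Vegfc window held 2 GC boxes and the Vegfb window 4, with no match to the other motifs in either. Over all 32851 windows of this length, 7.25% held an NF-κB match, 32.7% a GC box, 1.55% a cAMP response element, 12.4% a TATA box and 16.6% the hypoxia core, which none of the 3 windows shown held. An NF-κB match was also present in a window of Vegfa, Pdgfa and Kdr, whose probes did not pass the test.

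**Figure D2:**
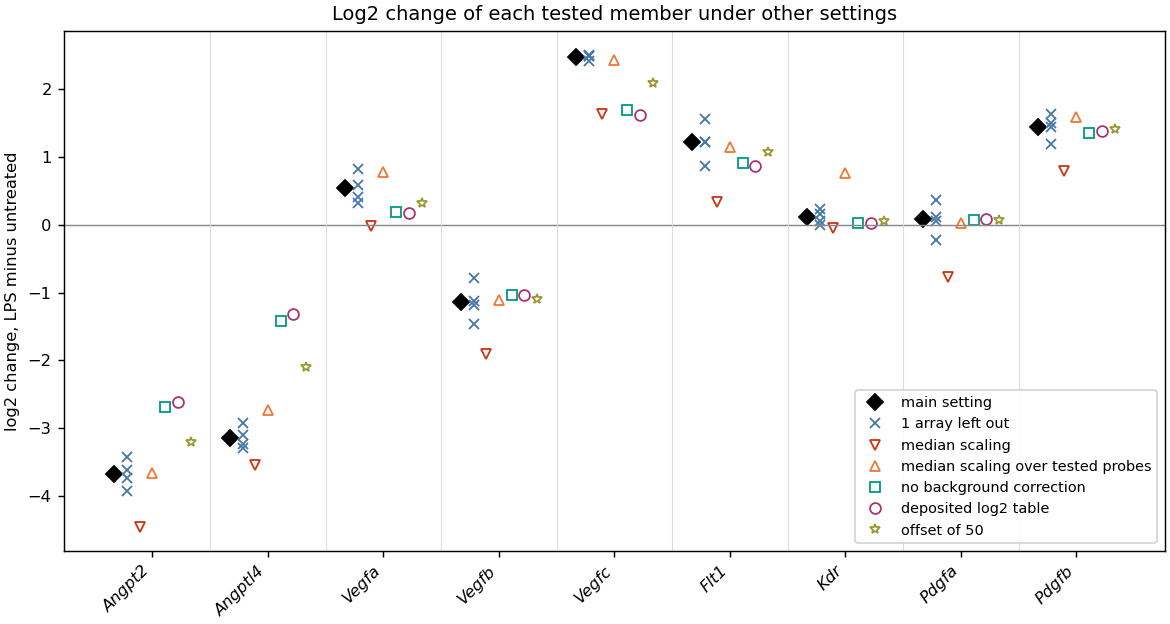
Log2 change, LPS minus untreated, of the 9 genes with a tested probe under the main setting (black diamonds) and under the alternatives that change the value (1 array left out, 2 scalings by the median, no background correction, the deposited log2 table and an offset of 50). Vegfc, Pdgfb and Flt1 stay above 0 and Angpt2, Angptl4 and Vegfb below 0 in all settings drawn; Pdgfa drops to -0.77 with median scaling.

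The other genes of the same pathways were counted from lists, each list without the 10 genes above. Of the 9 other angiopoietins, angiopoietin-like proteins and TIE receptors with a probe, 2 were tested and neither passed the limma test (0 at an unadjusted p under 0.05): Angptl6 was at -0.15 (limma adjusted p = 0.426) and Angptl7 at 0.06 (limma adjusted p = 0.755) on the log2 scale. Angpt1, Angpt4 and the receptor genes Tek and Tie1 had no testable probe. Of the 5 other VEGF ligands, receptors and neuropilins, 2 were tested, and they went opposite ways. The co-receptor gene Nrp1 fell 2.29-fold (log2 change -1.2, SE 0.179, limma adjusted p = 0.00257; -0.71 without background correction and -2.01 with median scaling), from 406.2 and 328.8 to 163.6 and 136.3 in signal. Nrp2, whose protein is a co-receptor for Vegfc, rose 1.87-fold after normalization (log2 change 0.91, SE 0.183, limma adjusted p = 0.00939). Its other tested probes were at 1.32 and 0.21. Nrp2 had deposited signals that overlapped between conditions, 188.6 and 208.7 with LPS and 226.7 and 198.3 without. It did not pass with median scaling (0.07, limma adjusted p = 0.786), with no filter (limma adjusted p = 0.0587) or without untreated replicate A or B (limma adjusted p = 0.0637 and 0.0677). Pgf, Vegfd and Flt4 had no testable probe, and neither did Pdgfc, Pdgfd, Pdgfra or Pdgfrb. Of the thrombospondins and their receptors, only Cd47, a receptor for thrombospondin-1, was tested. Its deposited signals were lower with LPS, at 487.7 and 435.1 against 605.9 and 563.5 without. After normalization Cd47 was 1.49-fold higher (log2 change 0.58, limma adjusted p = 0.0182), or stood at -0.28 with median scaling. It did not pass with slide as a block (limma adjusted p = 0.067) or without untreated replicate A or B (log2 change 0.48 and 0.69).

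Of 24 other angiogenic growth factors and inhibitors, 14 were tested, of which 6 rose, 2 fell and 6 did not pass, beside 13.7% of all tested genes higher and 21.4% lower, with a median log2 change of 0.33 beside -0.09 for all tested genes. Edn1, which encodes the vessel-constricting peptide endothelin-1, rose most, from signals of 123.5 and 128.1 to 872.5 and 637.5 (34.5-fold, log2 change 5.11, limma adjusted p = 3.25e-06). Timp1, an inhibitor of matrix metalloproteinases, rose from 130.4 and 120.9 to 471.7 and 559.8 (23.4-fold, limma adjusted p = 5.33e-06). Plaur, the receptor of urokinase, rose from 446.1 and 373.2 to 1730.9 and 1600.2 (8.87-fold, limma adjusted p = 6.2e-06). In each of these genes every LPS array lay above every untreated array, and each passed in all settings run. The untreated signals of Edn1 and Timp1 were near the lowest detected signals of those arrays, 123.2 and 118.6, and the size of their rises moved with the background. With no background correction Edn1 was at 3.12 on the log2 scale, and at 2.99 in the deposited table, and Timp1 was at 2.59 and 2.46 in these settings. Hbegf, another of the 6 rises, was at least 2.81-fold higher. It was detected on both LPS arrays but on only 1 untreated array, and entered the test only through the LPS arrays, where it was higher. That filter favours a rise, so its pass gives no separate support for one. Without background correction Hbegf was at 0.49 on the log2 scale, which is less than that bound. The 2 falls were Plxnd1 and Timp2. Plxnd1, a semaphorin receptor of vessels, was 2.27-fold lower (limma adjusted p = 0.00101). Timp2, another metalloproteinase inhibitor, was at least 1.45-fold lower (limma adjusted p = 0.00479). It was not detected with LPS and entered the test only through the untreated arrays, where it was higher. That filter favours a fall, so its adjusted p gives no separate support for one. Timp2 was at -0.21 on the log2 scale without background correction, which is less than that bound, and did not pass with median scaling over the tested probes (-0.11, limma adjusted p = 0.614) or without untreated replicate A or B (limma adjusted p = 0.0841 and 0.0881).

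Vegfa, Angptl4 and Flt1 are known targets of hypoxia signalling, so genes of that pathway were also counted. Of 14 tested genes of 19, 2 rose, 4 fell and 8 did not pass, near the 13.7% higher and 21.4% lower of all tested genes, and the median log2 change was -0.1 beside -0.09. Slc2a1, the glucose transporter GLUT1, rose 2.65-fold (limma adjusted p = 0.000458) and P4ha1, a collagen prolyl hydroxylase subunit, 1.89-fold (limma adjusted p = 0.00856). The deposited signals of P4ha1 overlapped between conditions, at 455.7 and 306.9 with LPS and 429.7 and 363.1 without. P4ha1 did not pass with median scaling (0.04, limma adjusted p = 0.884), with no filter (limma adjusted p = 0.0543) or without untreated replicate A or B (limma adjusted p = 0.0579 and 0.0625). Ndrg1 fell 2.1-fold (limma adjusted p = 0.00135), Bnip3l, a mitophagy receptor, 1.78-fold (limma adjusted p = 0.00403) and Ankrd37 1.55-fold (limma adjusted p = 0.0202). Bnip3l did not pass without untreated replicate B (limma adjusted p = 0.0692), and Ankrd37 with no filter (0.0654), with slide as a block (0.0507) or without untreated replicate A or B (0.133 and 0.16, all limma adjusted p). Hif1a, the oxygen-regulated subunit of the hypoxia factor, was at 0.09 on the log2 scale (limma adjusted p = 0.663). Arnt, its partner, was the fourth gene that fell, at -0.46 (limma adjusted p = 0.0331), but its other 3 tested probes were at -0.17, 0.15 and 0.43. Arnt did not pass with slide as a block (limma adjusted p = 0.109) or without untreated replicate A or B (log2 change -0.48 and -0.44).

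Angptl4 is also a known target of PPAR receptors, and its protein acts on lipoprotein lipase. Of 10 tested genes of the 15 other PPAR genes with a probe, 1 rose, 1 fell and 8 did not pass, beside 13.7% and 21.4% of all tested genes, with a median log2 change of -0.16. Acadm, an enzyme of fatty acid oxidation, fell by 1.08 on the log2 scale (limma adjusted p = 0.00178). Pex11a, a peroxisomal membrane protein, rose by 0.76 after normalization (limma adjusted p = 0.00534), or stood at -0.02 with median scaling. Its deposited signals overlapped between conditions, at 163.5 and 148.8 with LPS and 186.2 and 160.7 without. Pex11a did not pass without untreated replicate A or B (limma adjusted p = 0.0526 and 0.0904). Pparg was at -0.43 (limma adjusted p = 0.0661), Ppard at -0.5 (limma adjusted p = 0.194) and the lipid droplet gene Plin2 at 0.49 (limma adjusted p = 0.0553). Of 5 tested genes of lipoprotein lipase and its partners, none passed, and Lpl itself was at 0.1 (limma adjusted p = 0.67). By limma 1 of these 5 had an unadjusted p under 0.05.

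**Figure D3:**
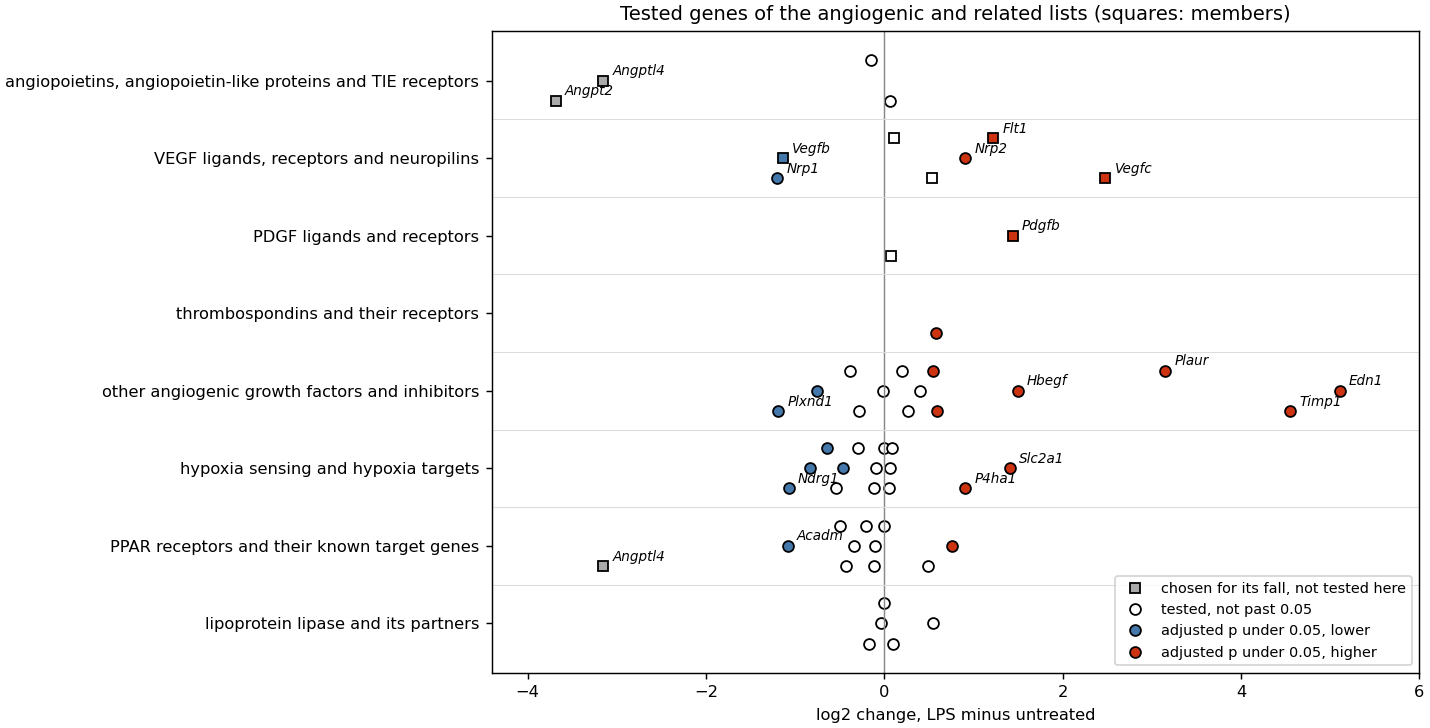
Log2 change, LPS minus untreated, of every tested gene of 8 lists of angiogenic and related genes, 1 row a list and 1 symbol a gene (squares, the 10 genes described; circles, other genes; red and blue, limma adjusted p under 0.05 and higher or lower; white, not past it; grey, Angpt2 and Angptl4, which were not tested). Edn1, Timp1 and Plaur lie farthest to the right, at 5.11, 4.55 and 3.15, and Angpt2 and Angptl4 farthest to the left.

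Genes with the profile most like that of Angpt2 and of Angptl4 were found by the Euclidean distance of log2 values over the 4 arrays, each probe set to 0 at its own untreated mean, among 9720 other genes. The nearest to Angpt2 were Klhl6 (distance 0.276), Tgfbr1 (0.607), Fam13c (0.631), Fndc10 (0.774) and Lhfpl2 (0.8), with log2 changes of -3.86 to -3.12. Klhl6, a kelch-like protein known from B cells, read 2279.1 and 1934 without LPS and 157.8 and 166.1 with it. Tgfbr1, a receptor of TGF-β, which is itself known as a regulator of vessels, read 1962.8 and 1745.5 without LPS and 186.9 and 174.7 with it. The nearest to Angptl4 were St6gal1 (0.159), Fndc10 (0.188), Cytip (0.203), C130050O18Rik (0.252) and Ung (0.253). Of these, Cytip and C130050O18Rik were, like Angptl4, not detected on both LPS arrays. The measure picks genes with a fall of the same size, so the size of their falls is no separate result.

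The labels name only a cultured macrophage line. Markers of other cell types were still read beside these results, since Flt1, Kdr, Tek and Tie1 are endothelial genes in tissue. Of 13 endothelial markers 6 were detected, Flt1, Kdr, Cdh5, Vwf, Egfl7 and Eng, and Pecam1, Cldn5, Esam, Emcn, Robo4, Tek and Tie1 were not. On the log2 scale Cdh5 was at -0.12 (limma adjusted p = 0.546), Vwf at -0.39 (0.0597), Egfl7 at -0.47 (0.0341) and Eng at 0.02 (0.947). Cdh5 and Vwf were not detected on either LPS array and entered the test only through the untreated arrays. That filter favours a fall, so their values give no separate support for one. Without Flt1 and Kdr, the summed level of the 11 others, background-corrected and quantile-normalized, was 133.4 and 105.4 with LPS and 163 and 157.7 without. This sum includes the undetected markers, and the part of other cells in the result for Flt1 was not tested. Of the 10 fibroblast and pericyte markers only Acta2 and Cspg4 were detected. The sum over all 10, undetected ones included, was 109.2 and 167.1 with LPS and 61.5 and 73.3 without. By its brightest probe Acta2 rose by 1.38 (limma adjusted p = 0.00539). The signals of that probe were 141.8 and 164.9 with LPS and 141.6 and 138.2 without. The other tested Acta2 probe was at 0.17 (limma adjusted p = 0.441). The part of Acta2-expressing cells in the result for Pdgfb was not tested. Treml1 was detected among 6 platelet and megakaryocyte markers, whose sum was 37.6 and 37.8 with LPS and 52.2 and 44.1 without. No marker of adipocytes and hepatocytes (0 of 9) or of T and B lymphocytes (0 of 5) was detected.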

How the data were processed

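RNA of RAW264.7 cells (RAW G9 in the methods) was measured on 4 Illumina arrays. Per the labels, the authors extracted the data with GenomeStudio 2011.1, and the deposited signal intensity of each probe is linear, without background subtraction. Negative controls of the array gave the deposited detection p-value. The deposited series table holds log2 values that share 1 distribution, whose target is not given in the sources used here. Probes were named from the platform annotation, with symbols updated through RefSeq (GRCm38.p6). Of 45281 probes 35784 had 1 symbol, 0 several and 9497 none; of the named 28620 matched by Entrez identifier, 2637 by accession, 2128 by symbol and 2343 by an older symbol, and 56 kept their symbol.

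Signals were background-corrected with neqc of limma 3.58.1 (R 4.3.3; offset 16, negative controls inferred from detection p), quantile normalized and taken to log2. A probe entered the test, by lmFit and eBayes, if either condition had it detected (p under 0.1) on its 2 arrays, with Benjamini-Hochberg adjustment over all 17211 and a threshold of 0.05. The procedure was tested on simulated data. The tested probe of highest mean log2 stood for a gene; where a condition was not detected on both arrays, the fold is a lower bound. Probe brightness differs between probes, so no level was set against that of another gene. All members were named with every probe, and from each list up to 3 rises and 3 falls past the threshold with arrays apart. The 5 nearest profiles and the detected markers were also named. Values of list genes that did not pass, and Arnt, Hbegf and Msr1, were named beside their counts. The members and lists were chosen with earlier results of these data known. Promoters are RefSeq windows, cut to the 250 bases before the start. Alternatives were other background, scaling, filter and block settings and leaving out each array. The number of arrays limits the precision. The p-values rest on the spread between 2 arrays a condition, moderated across probes by eBayes. With LPS that spread holds slide as well as culture, since only the untreated arrays shared a slide.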

Additional observations from a re-analysis of the deposited data

How the results depend on the processing

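The falls of Angpt2 and Angptl4 kept their direction in all settings run, but their size depended on the background. Angpt2 was at -2.69 without background correction, -3.2 with an offset of 50, -2.61 in the deposited log2 table and -4.46 with median scaling, and from -3.93 to -3.43 with 1 array left out. Angptl4 was at -1.42, -2.1, -1.31 and -3.54 in the same settings, at -2.74 with median scaling over the tested probes, an alternative chosen after seeing the data, and from -3.29 to -2.92 with 1 array left out. Median scaling moved the median of all tested probes from -0.07 to -0.62, with 819 probes higher and 10095 lower, 2 of the family genes lower and Pdgfa reversed at -0.77; scaling over the tested probes moved it to 0.18, with 6002 higher and 2789 lower, and 5 family genes higher, Vegfa (0.78) and Kdr (0.76) among them. The cause was not tested. With no filter, where 45281 probes share the adjustment, 0 family genes were lower (Vegfb adjusted p = 0.0681) and Flt1 was at an adjusted p of 0.0599.

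With slide as a random block, 1600 probes were higher and 2017 lower. Only the untreated arrays shared a slide, so this block cannot take slide apart from LPS. The letters A and B pair nothing in the labels. Across the tested probes, the deviations of replicate A from its condition mean correlated at 0.15 between LPS and untreated cells. With the replicate block, 2639 probes were higher and 3689 lower, and Vegfa passed at 0.54 (adjusted p = 0.0149). Leaving out 1 array gave 1085 to 4032 probes higher, 1013 to 4859 lower, 3 to 5 family genes higher and 1 lower, where the lone array is assumed to vary like the others. The 5 came without LPS replicate B, with Vegfa at 0.83 and Pdgfa at 0.37, and Vegfb then was at -0.78. The highest counts came without LPS replicate A or B, and the lowest without untreated replicate A or B. Vegfc and the bright Pdgfb probe passed in all settings. Of the 19 list genes that passed, 6 no longer did with median scaling (Nrp2, Cd47, Adm, Tymp, P4ha1 and Pex11a), 5 with no filter, 5 with the slide block, 9 without untreated replicate A and 10 without untreated replicate B.

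Thbs1, Kdr and Angptl4 with LPS lay at or near background, where the files give little more than a bound, and the number of arrays limits the precision.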
